A study of Mus musculus with 4 samples.

Results

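Saa3, Hp, Lcn2, Thbs1, Mt1 and Mt2 are 6 of the 27998 genes counted in single cells from the inflamed spinal cord (SC), and they were chosen by their measured levels across cell classes and libraries, so every level and ratio of theirs given here is a description with no test. Each level was taken from barcodes with 2000 or more UMIs (unique molecular identifiers, which count molecules of RNA) and was set beside barcodes of 1 to 100 UMIs, which hold mostly RNA floating free in the cell suspension. All mice had experimental autoimmune encephalomyelitis (EAE), a model of CNS autoimmunity induced by immunization with the myelin peptide MOG35-55 in complete Freund's adjuvant and with pertussis toxin, at a lower dose in the transgenic pair. In the blockade pair, wild-type C57Bl/6JOlaHsd mice aged 15 weeks received from the day of induction either the isotype control antibody mIgG1 or an antibody that blocks angiopoietin-2 (Ang2 Ab), and SCs were taken at 14 days post immunization (dpi). In the overexpression pair, C57Bl/6JCrl mice of 12 to 14 weeks were used at 12 dpi: EC-Ang2 mice carried VE-cadherin-tTA and Tet-OS-Ang2, which drive Ang2 in endothelial cells (ECs) once doxycycline is withdrawn at birth, and Ctrl mice were their single-transgenic littermates. CD45+ immune cells and CD31+ ECs were sorted in equal numbers, so the ratio of these compartments was set by the sort. Each condition was 1 library, the number of mice pooled in it is not given in the sources used here, and no difference between conditions could be tested. All intervals below are 95% intervals that cover counting error only, and none covers the spread between mice.

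The 6 genes belong to the acute phase and metal responses. Saa3 encodes serum amyloid A3, an apolipoprotein that is made outside the liver in inflammation, and Hp encodes haptoglobin, which binds free haemoglobin. Lcn2 encodes lipocalin-2, which withholds iron from bacteria by binding their siderophores. Thbs1 encodes thrombospondin-1, a matricellular glycoprotein that binds CD36 and CD47. Mt1 and Mt2 encode metallothioneins, small cysteine-rich proteins that bind zinc and copper and are induced by metals, glucocorticoids and inflammatory cytokines. In acute inflammation IL-1, IL-6 and related cytokines act through NF-kB, STAT3 and C/EBP factors on many acute phase genes, while the zinc sensor MTF1 acts on metallothionein genes through metal response elements.

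On the GRCm38 build with GENCODE vM21, Saa3 (ENSMUSG00000040026) lies at chr7:46711998-46715700 on the minus strand. Hp (ENSMUSG00000031722) lies at chr8:109575128-109579172 on the minus strand, and Lcn2 (ENSMUSG00000026822) at chr2:32384633-32388252 on the minus strand. Thbs1 (ENSMUSG00000040152) lies at chr2:118111876-118127133 on the plus strand. Mt2 (ENSMUSG00000031762) at chr8:94172664-94173568 and Mt1 (ENSMUSG00000031765) at chr8:94179082-94180327 are both on the plus strand, with 5514 bases from the end of Mt2 to the start of Mt1. The 250 bases upstream of the RefSeq start are printed 5′ to 3′ for the 4 members that the RefSeq table for GRCm38.p6 holds, since Saa3 was high in infiltrating myeloid cells, Lcn2 and Mt2 were high in ECs, and Mt1 was high in ECs of 2 libraries. Capitals mark matches on either strand to C/EBP (TTNNGNAA) and NF-kB in Saa3 and Lcn2, and to metal response elements (TGCACNC or TGCGCNC) in Mt1 and Mt2. The regions are chr7:46715677-46715926 (Saa3), chr2:32387740-32387989 (Lcn2), chr8:94178839-94179088 (Mt1) and chr8:94172368-94172617 (Mt2).
Saa3: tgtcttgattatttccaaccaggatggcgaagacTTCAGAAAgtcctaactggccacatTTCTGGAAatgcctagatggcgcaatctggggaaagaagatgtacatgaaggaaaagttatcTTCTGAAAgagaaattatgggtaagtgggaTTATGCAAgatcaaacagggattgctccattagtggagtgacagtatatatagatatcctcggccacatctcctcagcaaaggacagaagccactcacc
Lcn2: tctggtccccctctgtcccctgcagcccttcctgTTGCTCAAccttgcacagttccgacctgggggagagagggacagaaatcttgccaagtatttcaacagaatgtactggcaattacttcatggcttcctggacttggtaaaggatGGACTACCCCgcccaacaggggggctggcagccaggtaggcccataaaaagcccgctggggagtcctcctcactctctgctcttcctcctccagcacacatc
Mt1: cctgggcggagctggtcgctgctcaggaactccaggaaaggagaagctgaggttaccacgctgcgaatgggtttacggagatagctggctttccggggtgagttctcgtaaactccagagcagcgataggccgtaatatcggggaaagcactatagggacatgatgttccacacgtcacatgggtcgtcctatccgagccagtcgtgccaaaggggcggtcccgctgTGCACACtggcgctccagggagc
Mt2: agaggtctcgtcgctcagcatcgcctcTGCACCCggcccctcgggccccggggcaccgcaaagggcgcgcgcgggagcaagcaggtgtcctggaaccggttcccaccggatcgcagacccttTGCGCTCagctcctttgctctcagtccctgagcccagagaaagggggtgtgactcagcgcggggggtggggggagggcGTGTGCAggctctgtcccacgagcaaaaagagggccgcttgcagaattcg
Saa3 held 4 C/EBP matches and no NF-kB match, and Lcn2 held 1 of each. Mt2 held 3 metal response elements, 2 of TGCACNC and 1 of TGCGCNC, and Mt1 held 1 of TGCACNC. These counts cover the printed windows only. Elements further upstream or downstream of the RefSeq start used were not counted, so the counts do not compare whole promoters. Of matches left in lower case, Mt1 held 2 overlapping NF-kB matches and Mt2 held 1 C/EBP match. None of the 4 windows held the STAT motif (TTCNNNGAA). Among 32851 promoters of the same length, 36.8% held a C/EBP match, 45.8% an NF-kB match, 7.02% a STAT match, 10.4% TGCACNC and 12.5% TGCGCNC, so the C/EBP and NF-kB letters are common and a match is only a description.

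The libraries held 66631583 (mIgG1), 57954609 (Ang2 Ab), 52084739 (Ctrl) and 52796061 (EC-Ang2) UMIs, and 6995, 7488, 6627 and 5415 barcodes were kept, with median depths of 6500, 4845.5, 4977 and 6888 UMIs. Barcodes were assigned to classes by marker genes, and 71.2% to 76.9% of a library fell into a class. Barcodes with 3 or more genes of more than 1 lineage, which include doublets, were left out (10.6% to 16.4%). Between 167 and 203 barcodes of a library had a sequence that another library also held. The checks of the classes used genes that no gate used. Angpt2 itself, which encodes Ang2, was at 1082 CPM (UMIs per 1000000 UMIs of the class) in Ackr1+ ECs of EC-Ang2 and 45.3 in Ctrl, and at 207 in Ang2 Ab and 53.5 in mIgG1, although an antibody acts on the protein and its transcript is no check of the blockade. The Ly6c2 monocytes (Ly6c2 without Ms4a7, 481 to 936 barcodes) held 6123 to 12701 CPM of the monocyte genes Ccr2, Plac8 and Chil3 together. They also held 4246 to 18097 CPM of macrophage genes, the C1q genes, Apoe and Mrc1. The neutrophils (Csf3r with granulocyte genes, 40 to 300 barcodes) held 24669 to 93192 CPM of S100a8, S100a9, Ltf, Ngp and Mmp8. This class also held 5216 to 10571 CPM of the same monocyte genes and 3721 to 17988 CPM of the macrophage genes. The part of these genes in the member levels of neutrophils was not tested. Cells with both Ly6c2 and Ms4a7 (double-positive cells, 87 to 1126 barcodes) and Ms4a7 macrophages (17 to 126 barcodes) held more macrophage genes than monocyte genes in all 4 libraries. Dendritic cells held 121 to 207 CPM of Batf3, Clec9a and Ccr9. They also held 1958 to 6057 CPM of the macrophage genes and 1593 to 3952 of the monocyte genes, whose part in the member levels of this class was not tested. Apoe was at 14267 CPM in neutrophils of mIgG1 and at 2650 to 4516 in the other 3 libraries, and the microglia class of mIgG1 held 21308 CPM of Apoe against 2375 to 6053 elsewhere, and the part of this difference in the member levels was not tested.

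Saa3, Hp and Thbs1 were found mostly in myeloid classes, and Lcn2 and Mt2 mostly in endothelial classes. The Ly6c2 and Ms4a7 classes together held 52.1% to 60.1% of all Saa3 UMIs of kept barcodes, 34.0% to 62.1% of Hp and 45.9% to 70.7% of Thbs1. Endothelial classes held 63.9% to 74.0% of Lcn2, 61.4% to 81.0% of Mt2 and 26.3% to 74.7% of Mt1. Mt1 was divided by library, since in mIgG1 the Ly6c2 and Ms4a7 classes held more of it (33.9%) than the endothelial classes (26.3%), and in the other 3 libraries they held less. Barcodes of mixed lineages held 11.1% to 22.3% of Saa3 and 21.5% to 33.0% of Lcn2, and neutrophils held 1.00% to 16.4% of Saa3 and 1.61% to 23.3% of Hp. Levels at the edge of the UMI minimum varied between libraries on either side of it. Hp and Thbs1 were higher just outside the minimum than just inside it in every library. The minimum thus left out barcodes with more of these genes, and the class shares above do not cover them. Saa3 was at 256 to 1581 CPM in barcodes up to 500 UMIs below the minimum and at 151 to 2392 in those up to 500 UMIs above it, Hp at 195 to 1406 and 96.1 to 836, and Lcn2 at 593 to 2123 and 615 to 2239. Thbs1 was at 33.3 to 122 just outside and 23.6 to 42.3 just inside, Mt1 at 657 to 1615 and 586 to 1889, and Mt2 at 269 to 957 and 238 to 1310.

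**Figure D1:**
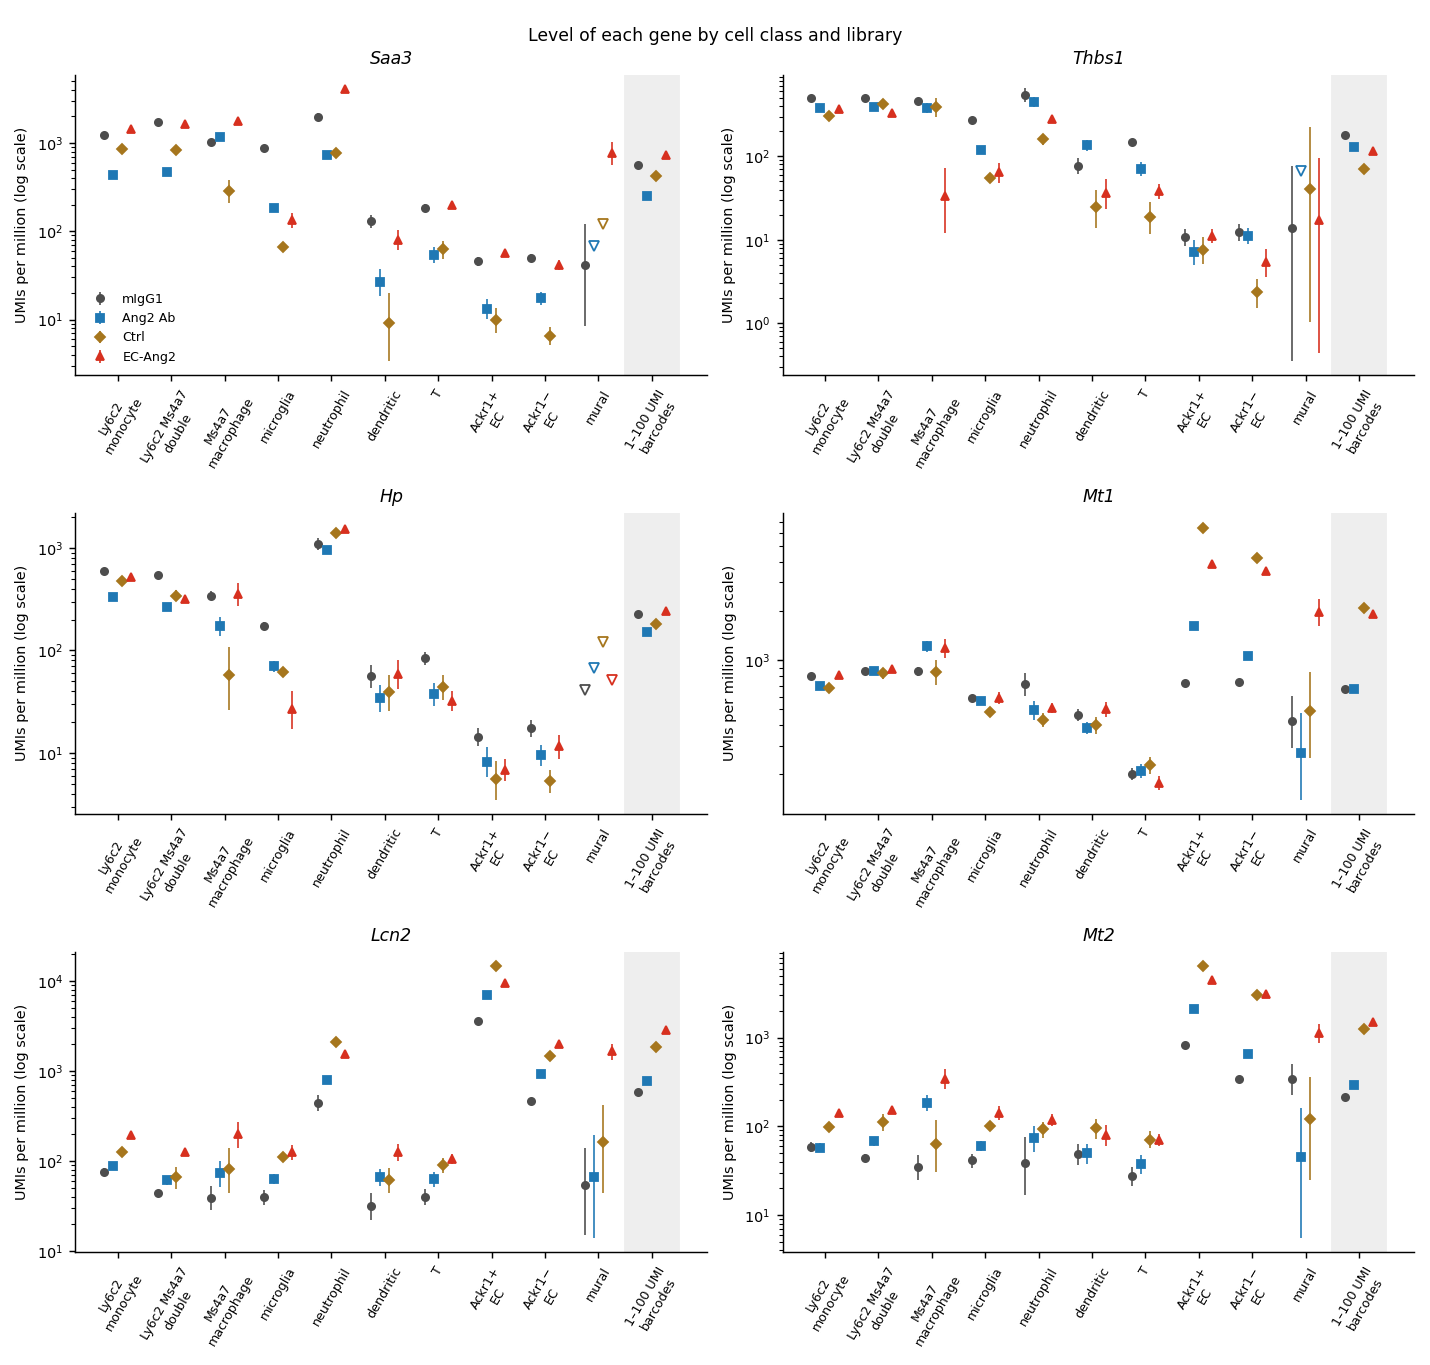
Level of each member (CPM, log axis) in every class, 1 panel per gene, with 1 marker per library and 95% Poisson intervals, open triangles at the upper limit where a class had 0 UMIs, and free RNA shaded. Lcn2 stands at 3579 to 14891 CPM in Ackr1+ ECs and Hp at 964 to 1543 in neutrophils, while Saa3, Hp and Thbs1 lie under 57 CPM in both endothelial classes.

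Saa3 was highest in neutrophils by its median over libraries, followed by double-positive cells, Ms4a7 macrophages and Ly6c2 monocytes, and the ranges of each of these neighbours overlapped. In Ly6c2 monocytes Saa3 was at 1226 CPM in mIgG1, 436 in Ang2 Ab, 866 in Ctrl and 1426 CPM in EC-Ang2. In double-positive cells it was at 1716, 476, 834 and 1655 CPM in the same order of libraries. In neutrophils it was at 1971, 734, 771 and 4076 CPM. Ang2 Ab was thus the lowest library in all 3 of these classes, although its interval overlapped that of Ctrl in neutrophils, and EC-Ang2 was the highest in monocytes and neutrophils. Free RNA held 570, 251, 419 and 735 CPM of Saa3, and the order of the libraries in it was the order in Ly6c2 monocytes. Free RNA accounted for 1.56% to 2.53% of the Saa3 UMIs of monocytes, as scaled by endothelial genes found in immune barcodes. In Ackr1+ ECs Saa3 was at 9.87 to 56.7 CPM. Free RNA would give 72.8% to 113% of these UMIs in 3 libraries, and in EC-Ang2 it would give 34.5% of the 551 UMIs. Where the estimate exceeds the UMIs found, it overshoots, so shares from free RNA are a guide only.

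A minority of cells carried most of the Saa3. With every barcode thinned to 2000 UMIs, 36.9%, 20.4%, 24.9% and 40.5% of Ly6c2 monocytes in mIgG1, Ang2 Ab, Ctrl and EC-Ang2 had a Saa3 UMI, where free RNA alone would give 2.18% to 4.86%. Without thinning, 53.6% of monocytes in mIgG1 and 31.7% in Ang2 Ab had one. The tenth of monocytes with the most Saa3 held 68.8% to 85.4% of the Saa3 UMIs of the class, against 37.4% to 49.4% for Hp and 40.2% to 53.8% for Thbs1. One neutrophil of EC-Ang2 held 289 Saa3 UMIs of 2000, and one monocyte of that library held 160. In T cells, which should lack Saa3, the share with a UMI was 2.78% to 12.3% and free RNA would give 3.64% to 9.78%. By UMIs, free RNA would give 19.1% to 34.3% of the Saa3 of T cells. This class also held 1058 to 10551 CPM of macrophage genes and 1301 to 1804 of monocyte genes, against 320 to 450 of Cd4 and Il7r. The part of these macrophage and monocyte genes in the member levels of T cells was not tested, nor was the source of their RNA.

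Hp was highest in neutrophils and lay next in Ly6c2 monocytes, and these neighbours did not overlap. Neutrophils held 1092 CPM of Hp in mIgG1, 964 in Ang2 Ab, 1409 in Ctrl and 1543 CPM in EC-Ang2. Monocytes held 597, 336, 476 and 526 CPM. The lowest neutrophil library was above the highest monocyte library, although the neutrophils of mIgG1 were only 40 barcodes. Double-positive cells held 547, 264, 342 and 319 CPM, T cells 32.4 to 83.7, and the EC classes 5.37 to 17.4, of which free RNA would give 63.5% to 110%. At 2000 UMIs, Hp was found in 65.3% to 80.0% of neutrophils and 35.6% to 51.6% of monocytes, against 2.78% to 9.86% of T cells. Hp was found more often in monocytes that also held Saa3. Their share with Hp was 62.1%, 44.5%, 54.2% and 60.6% in the 4 libraries, against 45.4%, 33.3%, 37.7% and 43.5% of monocytes without Saa3. In the mural class, Hp had 0 UMIs in all 4 libraries, in 22, 16, 9 and 14 barcodes, which allows shares of up to 13.6% to 33.3% of barcodes with a UMI and sets no limit on cells that express the gene.

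Thbs1 lay in the same myeloid classes as Saa3 and Hp, at more even levels. Double-positive cells held 505 CPM in mIgG1, 391 in Ang2 Ab, 426 in Ctrl and 329 CPM in EC-Ang2, and Ly6c2 monocytes held 506, 381, 303 and 371. Neutrophils held 546, 447, 159 and 280 CPM, with the overexpression pair below the blockade pair. Microglia held 271, 118, 55.7 and 64.1 CPM. EC classes held 2.34 to 12.3 CPM. Free RNA would give 64.8% to 107% of these UMIs, except in Ackr1+ ECs of Ctrl (24.6% of 30 UMIs) and of EC-Ang2 (27.6% of 109 UMIs). At 2000 UMIs per barcode 38.7% to 50.5% of double-positive cells had a Thbs1 UMI, and 2.72% to 11.5% of T cells did.

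Lcn2 was highest in Ackr1+ ECs. It was at 3579 CPM in Ackr1+ ECs of mIgG1 (95% interval 3535 to 3624), 6961 in Ang2 Ab, 14891 in Ctrl and 9655 CPM in EC-Ang2, and this class lay above every other class in each library, and above free RNA. Ackr1 encodes an atypical chemokine receptor that marks venular endothelium. ECs without Ackr1 held 467, 924, 1492 and 2017 CPM of Lcn2. Neutrophils, which store lipocalin-2 in their granules, held 444, 796, 2131 and 1561 CPM. Free RNA held 594, 770, 1848 and 2876 CPM. In the other immune classes Lcn2 was at 32.0 to 199 CPM, and free RNA would give 34.1% to 138% of it. At 2000 UMIs per barcode 85.3%, 91.2%, 97.0% and 95.2% of Ackr1+ ECs had a Lcn2 UMI, and 50.2%, 72.4%, 88.7% and 80.9% had 5 or more. Of Ackr1- ECs, 30.2%, 39.9%, 41.2% and 59.3% had a UMI, and of T cells 9.62% to 20.5% did, where free RNA would give 10.2% to 25.5%.

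**Figure D2:**
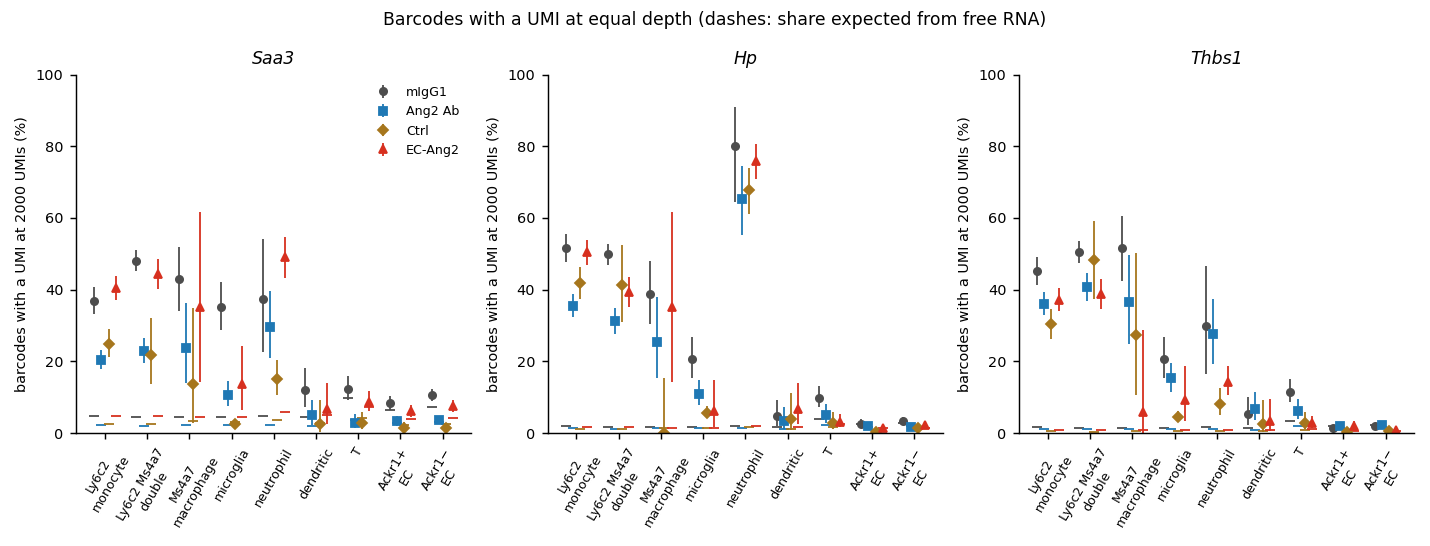
Share of barcodes with a UMI of Saa3, Hp or Thbs1 (percent, every barcode thinned to 2000 UMIs) by class, with 1 marker per library, exact binomial 95% intervals, and dashes at the share that free RNA alone would give. In Ly6c2 monocytes the Saa3 share runs from 20.4% to 40.5%, and in neutrophils the Hp share runs from 65.3% to 80.0%.

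Within ECs, Lcn2 followed the Ackr1 count. Lcn2 was 7.66-fold higher in Ackr1+ than in Ackr1- ECs of mIgG1, 7.53-fold in Ang2 Ab, 9.98-fold in Ctrl and 4.79-fold in EC-Ang2. Mt2 was 2.37-, 3.28-, 2.16- and 1.44-fold higher, and Mt1 was at 0.984-, 1.52-, 1.54- and 1.11-fold. Only Lcn2 of the 6 passed 1.5-fold in all 4 libraries, where 2.68% of the 9319 genes tested did so. Across bins of Ackr1 UMIs in barcodes thinned to 2000 UMIs, Lcn2 of Ctrl was at 1525 CPM with 0 Ackr1 UMIs, 3565 with 1, 11721 with 2 to 3, 13182 with 4 to 7 and 19062 with 8 or more. Each step was upward in mIgG1 (570 to 5971 CPM from the lowest to the highest bin), Ang2 Ab (969 to 9913) and EC-Ang2 (2245 to 13130) as well. Selp, which encodes the venular adhesion molecule P-selectin, and Slco1a4, a transporter of the blood-brain barrier, moved in opposite directions over the same bins. In Ctrl, Selp went from 1.09 to 307 CPM and Slco1a4 from 1887 to 1072. Mt2 of mIgG1 went from 352 to 1281 CPM and of Ang2 Ab from 646 to 2995, while its steps were not all upward in Ctrl and EC-Ang2.

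**Figure D3:**
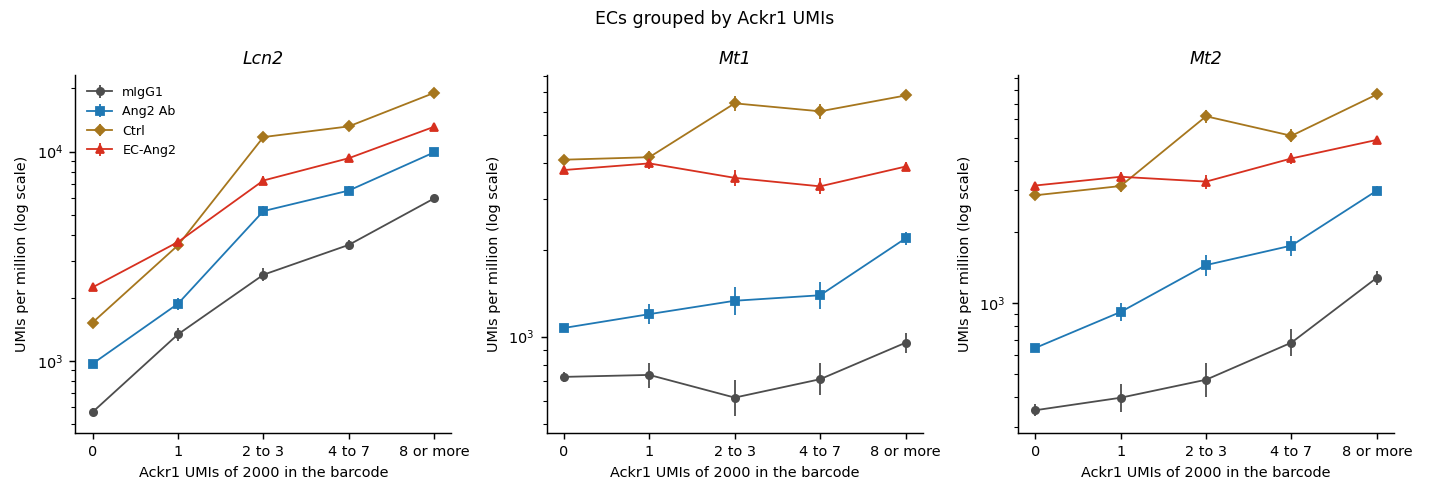
Levels of Lcn2, Mt1 and Mt2 (CPM, log axis) in ECs binned by Ackr1 UMIs of 2000, with 1 line per library and 95% Poisson intervals. Lcn2 goes up at each step in all 4 libraries, from 570 to 5971 CPM in mIgG1 and from 1525 to 19062 in Ctrl, and Mt1 changes least.

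Mt1 was present in all classes, and its highest levels were in ECs of the overexpression pair. Ackr1+ ECs held 727 CPM in mIgG1, 1611 in Ang2 Ab, 6495 in Ctrl and 3891 CPM in EC-Ang2, and Ackr1- ECs held 738, 1060, 4225 and 3516. In double-positive cells, Ly6c2 monocytes, microglia and T cells the libraries were close to each other. They were further apart in neutrophils, at 431 to 715 CPM, and in Ms4a7 macrophages, at 846 to 1218. Double-positive cells held 865, 865, 831 and 880 CPM, Ly6c2 monocytes 798, 700, 678 and 818, and microglia 585, 562, 482 and 589. T cells were lowest at 178 to 228 CPM. Double-positive cells lay above monocytes, and monocytes above microglia, without overlap between the libraries of neighbouring classes. At 2000 UMIs Mt1 was found in 60.9% to 73.2% of double-positive cells, and in 44.2%, 60.7%, 86.9% and 74.6% of Ackr1+ ECs.

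Mt2 was mostly endothelial. Ackr1+ ECs held 818, 2125, 6477 and 4450 CPM and Ackr1- ECs 345, 648, 2995 and 3084, while Ly6c2 monocytes held 58.5, 57.5, 99.3 and 143 CPM. Free RNA would give 16.0% to 40.1% of the Mt2 of monocytes and 0.501% to 1.53% of that of Ackr1+ ECs. Mt1 UMIs per Mt2 UMI were 0.889, 0.758, 1.00 and 0.874 in Ackr1+ ECs and 2.14, 1.64, 1.41 and 1.14 in Ackr1- ECs. In Ly6c2 monocytes the ratio was 13.6 (95% interval 12.0 to 15.6) in mIgG1, 12.2 in Ang2 Ab, 6.83 in Ctrl and lowest, at 5.71, in EC-Ang2. Free RNA had ratios of 3.12, 2.28, 1.69 and 1.28. The monocyte ratio thus exceeded both EC ratios and that of free RNA in each library, and the EC classes did not overlap. Both metallothioneins tended to be found in the same ECs: of Ackr1+ ECs with Mt1, 59.7%, 77.0%, 85.0% and 86.9% also had Mt2, against 23.0%, 34.8%, 32.8% and 43.4% of those without. In monocytes these shares were 9.66%, 12.0%, 16.1% and 19.1% with Mt1 and 5.71%, 4.59%, 11.4% and 14.1% without.

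**Figure D4:**
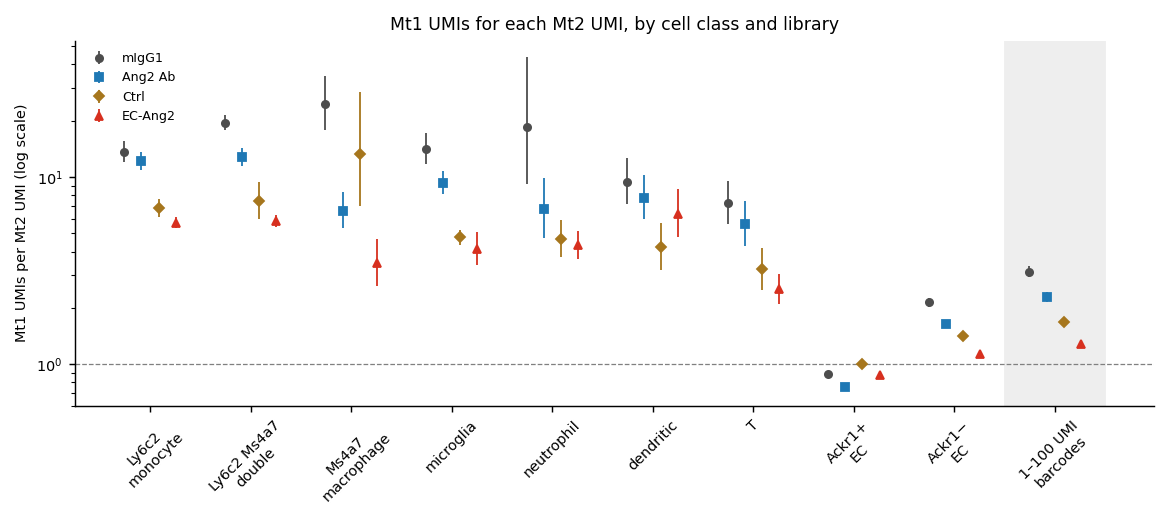
Mt1 UMIs per Mt2 UMI (log axis) by class and library with exact 95% intervals. Ackr1+ ECs lie between 0.758 and 1.00, Ackr1- ECs between 1.14 and 2.14, and Ly6c2 monocytes between 5.71 and 13.6.

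Ms4a7 macrophages, gated without Ly6c2, were few in the overexpression pair. Saa3 was at 1022 CPM in mIgG1 (126 barcodes), 1185 in Ang2 Ab (63), 286 in Ctrl (22) and 1782 CPM in EC-Ang2 (17). Thbs1 was at 457, 380, 388 and 33.1 CPM, the last from 6 UMIs, and Hp at 342, 172, 57.2 and 353. Mt1 was at 857, 1218, 846 and 1186 CPM. Mt2 was at 34.9, 184, 63.6 and 342 CPM, with EC-Ang2 and Ang2 Ab above the control of their pair.

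Pairs of members were counted in the same barcodes at equal depth, and no difference between classes was tested. Of Ly6c2 monocytes with Saa3, 50.6%, 40.3%, 35.0% and 40.9% had Thbs1, against 42.1%, 35.0%, 28.8% and 34.8% of those without, and the intervals overlapped in each library. Of neutrophils with Hp, 82.0% in EC-Ang2, 66.4% in Ctrl and 54.5% in Ang2 Ab had Lcn2, against 59.7%, 52.1% and 25.7% of those without, and the intervals were apart in EC-Ang2 only. Of Ackr1- ECs with Lcn2, 27.1%, 43.7%, 73.5% and 73.8% had Mt2, against 23.4%, 32.8%, 54.7% and 56.0% of those without. These intervals were apart in all libraries except mIgG1. In Ackr1+ ECs, where nearly all cells had Lcn2, Mt2 was found in 38.8%, 62.5%, 79.0% and 75.6% of those with Lcn2 and in 42.1%, 38.7%, 50% and 81.0% of the few without. These intervals were apart in Ang2 Ab alone, and the share with Lcn2 was the lower one in mIgG1 and EC-Ang2.

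Mural cells (Pdgfrb with pericyte genes) were too few for a level to be read closely. Saa3 had 3, 0, 0 and 45 UMIs in the 22, 16, 9 and 14 mural barcodes. Lcn2 had 4, 3, 4 and 96 UMIs, which is 1656 CPM (1342 to 2022) in EC-Ang2 and 55.2 to 163 in the others. After thinning, 1 of the 14 mural barcodes of EC-Ang2 held all of its Saa3, at 17 UMIs, and 1 held 21 Lcn2 UMIs, so these levels rest on a single barcode each.

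The blockade pair asked how the genes differed when Ang2 was blocked. A value was called when 1.5-fold or more separated the libraries with 50 or more UMIs over both together. Of 54 values (6 genes in 9 classes), 19 were lower and 13 higher in Ang2 Ab, 21 did not pass the fold, and 1 was under the minimum. The background was the share of all genes tested in a class that passed the same fold. Lower in Ang2 Ab were 4.05% of genes in Ly6c2 monocytes, 4.1% in double-positive cells, 6.11% in Ms4a7 macrophages, 3.38% in microglia, 8.89% in neutrophils, 3.72% in dendritic cells, 5.56% in T cells, 4.29% in Ackr1+ ECs and 3.3% in Ackr1- ECs. Higher were 5.93%, 4.45%, 6.27%, 9.86%, 13.6%, 7.61%, 4.64%, 3.3% and 3.77% in the same order of classes. Because the genes were chosen on these levels, the shares stand beside the counts as context and no more. The median ratio of all genes was within 0.1 of 0 on the log2 scale in these classes except microglia, at 0.11.

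Saa3 was lower in Ang2 Ab in 8 of 9 classes. The log2 ratio was -1.49 (-1.56 to -1.42) in Ly6c2 monocytes, -1.85 (-1.91 to -1.79) in double-positive cells, -1.43 in neutrophils and -2.25 in microglia. Ms4a7 macrophages were the exception at 0.21 (0.07 to 0.36), from 1141 and 598 UMIs in 126 and 63 barcodes, and this value ran from -0.72 to 0.56 over the alternative settings. Hp was also lower in 8 of 9 classes, by -0.83 in monocytes and -1.05 in double-positive cells, and stood at -0.18 (-0.41 to 0.06) in neutrophils. In free RNA Saa3 and Hp were lower too, and free RNA would give 72.8% to 113% of the Saa3 UMIs of the EC classes of this pair and 27.8% to 34.3% of those of T cells. Thbs1 was lower in 3 classes (microglia at -1.20, T cells at -1.06 and Ackr1+ ECs at -0.60, the last with 75 and 33 UMIs, of which free RNA would give 97.8% and 107%, and not of the same sign in every alternative) and higher in dendritic cells at 0.84. The tenth of dendritic cells with the most Thbs1 held 97.7% to 100% of its UMIs.

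Lcn2 ran the other way and was higher in Ang2 Ab in 7 of 9 classes. The log2 ratio was 0.96 (0.94 to 0.98) in Ackr1+ ECs, 0.98 (0.92 to 1.05) in Ackr1- ECs and 0.84 (0.51 to 1.19) in neutrophils, where it was at -0.0237 with barcodes thinned to 2000 UMIs. The other 4 classes were Ms4a7 macrophages, microglia, dendritic cells and T cells, where free RNA, which itself held more Lcn2 in Ang2 Ab (770 CPM) than in mIgG1 (594 CPM), would give 44.3% to 133% of its UMIs. Monocytes, at 0.22, and double-positive cells, at 0.47, did not pass the fold. Ackr1+ and Ackr1- ECs were 825 and 1409 barcodes in mIgG1 and 702 and 2115 in Ang2 Ab, and the part of this shift in the EC ratios was not tested. Ngp, a gene of immature neutrophils, was at 14.5 CPM in the neutrophils of mIgG1 and 771 in those of Ang2 Ab, and its part in the Lcn2 ratio of that class was not tested. Mt2 was higher in 4 classes, by 2.40 in Ms4a7 macrophages (39 and 93 UMIs), 0.61 in double-positive cells, 1.38 (1.33 to 1.43) in Ackr1+ ECs and 0.91 (0.84 to 0.99) in Ackr1- ECs. The value in Ms4a7 macrophages ran from 0.61 to 3.54 over the alternative settings. The tenth of these macrophages with the most Mt2 held 50% to 88.2% of its UMIs, depending on the library. Mt1 was higher in Ackr1+ ECs only, by 1.15 (1.10 to 1.20), with 0.52 in Ackr1- ECs.

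The overexpression pair asked the same of EC-driven Ang2. Ms4a7 macrophages were not compared, with 22 and 17 barcodes. Of 48 values, 3 were lower and 15 higher in EC-Ang2, 29 did not pass the fold, and 1 was under the minimum. Lower in EC-Ang2 were 6.48% of genes in monocytes, 9.34% in double-positive cells, 19.3% in microglia, 6.07% in neutrophils, 6.42% in dendritic cells, 5.93% in T cells, 5.8% in Ackr1+ ECs and 4.49% in Ackr1- ECs. Higher were 7.84%, 12.1%, 6.3%, 14.1%, 7.22%, 4.74%, 6.85% and 5.64%. The median of all genes in neutrophils stood at 0.19, and the values and calls for that class are given without subtracting it.

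Saa3 was higher in EC-Ang2 in all 8 classes compared. The log2 ratio was 0.72 (0.66 to 0.78) in Ly6c2 monocytes, 0.99 (0.87 to 1.10) in double-positive cells and 2.40 (2.29 to 2.51) in neutrophils. Chil3, a gene of Ly6c monocytes that no gate used, was at 1376 CPM in monocytes of Ctrl and 7559 in those of EC-Ang2. In neutrophils Ngp went the other way, from 3489 to 69.0 CPM. The part of either in the Saa3 values was not tested. The Saa3 ratio was 2.52 in Ackr1+ ECs (39 and 551 UMIs) and 2.68 in Ackr1- ECs (75 and 208 UMIs). Free RNA would give 111% and 207% of these UMIs in Ctrl and 34.5% and 53.1% in EC-Ang2. The estimate thus overshot the UMIs found in Ctrl, and the free part of these ratios was not measured. The Saa3 ratio was 1.66 in T cells and 0.99 in microglia (824 and 66 barcodes). In dendritic cells it was 3.13 from 6 and 56 UMIs, of which free RNA would give 158% and 31.3%. Hp did not pass the fold in Ly6c2 monocytes (0.15), double-positive cells (-0.10) or neutrophils (0.13). Thbs1 was at 0.29 in monocytes and -0.37 in double-positive cells, and was higher in neutrophils at 0.81. It was also higher in T cells at 1.03 (22 and 90 UMIs) and in Ackr1- ECs at 1.21 (27 and 27 UMIs). Free RNA would give 97.7% and 64.8% of the Thbs1 UMIs of these ECs.

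Lcn2 was lower in Ackr1+ ECs of EC-Ang2, at -0.63 (-0.64 to -0.61), a value short of 1.5-fold in 3 of the 14 alternatives that recompute it (range -0.64 to -0.45). It did not pass the fold in Ackr1- ECs, at 0.43 (0.40 to 0.47). Lcn2 followed Ackr1, and Ackr1+ and Ackr1- ECs were 467 and 2545 barcodes in Ctrl but 869 and 983 in EC-Ang2. These ratios thus hold within each class, and no ratio over all ECs was taken. The part of this shift in the EC ratios was not tested. In neutrophils Lcn2 stood at -0.45 (-0.54 to -0.36), and this value ran from -1.24 to 0.38 over the alternatives, with its direction turned in some of them. It was higher in monocytes at 0.62, in double-positive cells at 0.93 and in dendritic cells at 1.01, classes where free RNA would give 46.5% to 102% of its UMIs. Mt1 was lower in Ackr1+ ECs at -0.74 (-0.76 to -0.72). Mt2 passed the fold in no class and stood at -0.54 in Ackr1+ ECs and 0.04 in Ackr1- ECs. Hbb-bs, a haemoglobin gene of erythrocytes, was at 4256 CPM in Ackr1- ECs of Ctrl and 2055 in EC-Ang2, and its part was not tested.

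**Figure D5:**
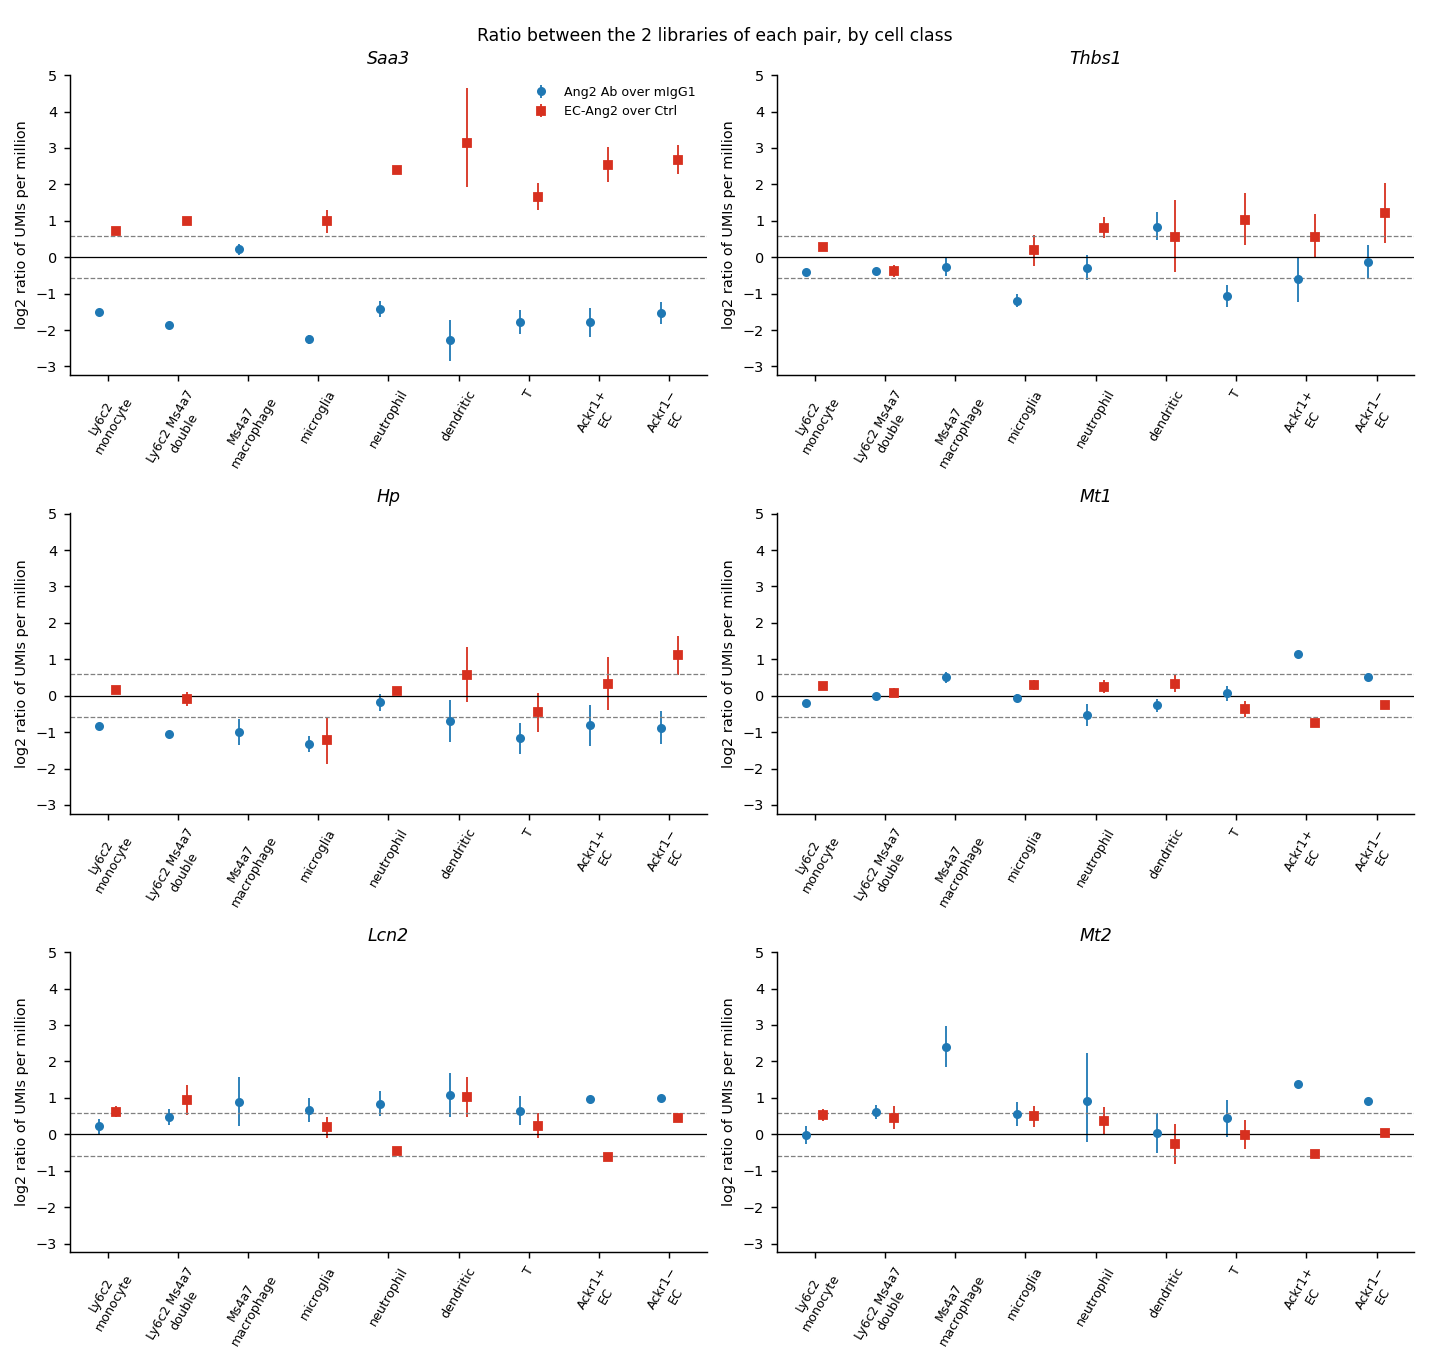
Log2 ratio of each member in each class, Ang2 Ab over mIgG1 and EC-Ang2 over Ctrl, with 95% counting intervals and lines at 1.5-fold. Saa3 lies below 0 in 8 of 9 classes of the blockade pair and above 0 in all 8 of the overexpression pair, and Lcn2 of Ackr1+ ECs lies at 0.96 and -0.63. Both EC classes were gated on Ackr1 and their sizes differed between libraries, so their values hold within the class only.

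For Lcn2 and the metallothioneins of ECs, the control libraries differed from each other more than the libraries of either pair. In Ackr1+ ECs, Ctrl over mIgG1 was 2.06 for Lcn2, 3.16 for Mt1 and 2.99 for Mt2 on the log2 scale, and in Ackr1- ECs it was 1.67, 2.52 and 3.12. In neutrophils it was 2.26 for Lcn2, against 0.84 and -0.45 within the pairs. Saa3 was lower in Ctrl in all 8 classes compared, from -0.50 in monocytes to -3.72 in microglia and -3.82 in dendritic cells, the last on 146 and 6 UMIs. In size the Saa3 value exceeded the ratios of both pairs in microglia, dendritic cells and Ackr1- ECs, and in no other class. Mt1 in double-positive cells stood at -0.06. Genes higher in Ctrl by the fold were 10.3% in monocytes, 14.5% in double-positive cells, 24.8% in microglia, 22.4% in neutrophils, 11.4% in dendritic cells, 10.8% in T cells, 4.5% in Ackr1+ ECs and 4.09% in Ackr1- ECs, and genes lower were 12.5%, 18.1%, 9.63%, 29.7%, 9.61%, 11.5%, 7.76% and 5.41%. These libraries differ in strain, age, transgene, antibody, pertussis toxin dose and dpi, whose effects cannot be told apart, and each also serves as the control of its own pair.

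Genes known to act around the members gave the following counts at the same fold, to be read beside the shares of all genes given above for each class and pair. Among cytokines that induce acute phase genes (Il6, Il1a, Il1b, Tnf, Osm, Lif and Il11), 3 of 5 tested were higher with Ang2 blocked in monocytes (Il6, Il1a and Tnf, median 0.89 against 0.01 over all genes) and 2 of 4 in neutrophils (0.90). In EC-Ang2, 2 of 5 were lower in monocytes (-0.33) and 3 of 4 in neutrophils (-0.88). Other classes were divided. With blockade, 2 of 5 were higher in double-positive cells, 2 of 4 in microglia, 2 of 4 in Ackr1+ ECs and 1 of 4 in Ackr1- ECs. In the same pair 0 of 3 were higher in Ms4a7 macrophages, 0 of 3 in dendritic cells and 0 of 4 in T cells. In EC-Ang2, 3 of 5 were lower in microglia and 2 of 3 in dendritic cells, and Il1a and Tnf were lower in Ackr1- ECs. Double-positive cells of EC-Ang2 had 1 of 5 lower and 1 higher (Osm). In T cells 1 of 4 was lower and 1 higher (Tnf), and in Ackr1+ ECs 2 of 5 were lower and 1 higher (Il6). Il1b, which encodes interleukin-1 beta, was at 2152 and 2327 CPM in monocytes of mIgG1 and Ang2 Ab and at 3201 and 3202 in Ctrl and EC-Ang2, so it did not pass in either pair. Il1a went from 213 to 600 CPM in neutrophils under blockade and from 1167 to 497 in the overexpression pair. Of the receptors, 3 of 7 tested were higher with blockade in Ackr1- ECs (median 0.38) and 2 of 7 in Ackr1+ ECs (0.43). Osmr, the oncostatin M receptor, went from 73.2 to 143 CPM in Ackr1- ECs.

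Among transcription factors and feedback genes, 0 of 8 tested passed the fold with blockade in monocytes and 0 of 8 in double-positive cells, and 1 of 8 (Nfkbiz) was lower in each of these classes of EC-Ang2. In microglia of EC-Ang2 3 of 8 were lower, where 19.3% of all genes were, of which Nfkbia, the NF-kB inhibitor, went from 1447 to 697 CPM, while Saa3 was higher there. Cebpb, which encodes C/EBP-beta, was at 3472 and 3905 CPM in monocytes of the blockade pair and at 4089 and 3847 in the overexpression pair. Of other acute phase genes, 3 of 6 tested were higher with blockade in Ackr1+ ECs (median 0.61). In EC-Ang2, 3 of 7 were higher in Ackr1+ ECs (0.48) and 3 of 4 in Ackr1- ECs (1.18). Lrg1, a secreted leucine-rich glycoprotein, went from 2134 to 3977 CPM in Ackr1+ ECs with blockade and stood at 4020 and 3759 in the overexpression pair. In Ackr1- ECs Lrg1 was higher in both pairs, from 458 to 1037 CPM with blockade and from 464 to 1102 in EC-Ang2. Among receptors and partners, Cd47, which binds thrombospondin-1, was at 391 and 489 CPM and at 573 and 532 in monocytes of the pairs. Hmox1, the haem oxygenase that acts on haem taken up with haptoglobin, went from 211 to 537 CPM in double-positive cells of the overexpression pair. Of receptors and partners, 2 of 7 tested were higher in monocytes with blockade (Cd36 and Tlr4) and 0 of 7 passed in monocytes of the overexpression pair. Of metal handling genes, 3 of 6 tested were higher in monocytes of EC-Ang2, and 2 of 6 were lower in Ackr1+ ECs of EC-Ang2 (median -0.53), and Fth1, the ferritin heavy chain, was at 27060 and 41142 CPM in monocytes of that pair.

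The genes most like each member were found by Pearson correlation of log2(CPM + 1) over 33 profiles (a class in a library with 50 or more barcodes) among 9856 genes. The profiles share libraries and cell classes, so the values are descriptions. Nearest to Saa3 were Grina (0.91), Hp (0.91) and Chil3 (0.91). Nearest to Hp were Clec4d (0.97), Msrb1 (0.97) and Arg2 (0.97), and nearest to Thbs1 were Sirpb1c (0.97), C3 (0.97) and F10 (0.97). Nearest to Lcn2 were Lrg1 (0.97), Rnd1 (0.96) and Cxcl1 (0.93). Nearest to Mt1 were Mt2 (0.84), Zfp503 (0.84) and Parvb (0.84), and nearest to Mt2 were Apod (0.94), Slc10a6 (0.94) and Cp (0.93). Between members, Lcn2 and Mt2 stood at 0.87, Hp and Thbs1 at 0.91, and Lcn2 and Thbs1 at -0.62.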

How the data were processed

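Single-cell RNA was measured from 4 libraries of sorted SC cells with droplet capture (10x 3′ v2). The authors deposited raw UMI counts per gene and barcode; per the labels, reads were processed with Cell Ranger 2.1.1 on mm10, and Seurat 2.3.4 is also named. From the deposited counts, barcodes with 2000 or more UMIs and under 10% mitochondrial UMIs were kept. A lineage needed 3 of 7 genes, microglia 4 of 7, other immune gates 2 genes, and Ly6c2, Ms4a7 or Ackr1 alone 2 UMIs. Double-positive cells needed only some UMI of both Ly6c2 and Ms4a7. They were deeper than Ly6c2 monocytes in every library, with medians of 8966 and 5980 UMIs in mIgG1. The part of depth in this split was not tested. Cell classes were rebuilt here and may differ from those of the study. Doublets of unlike cells were left out by mixed markers, and no doublet caller was run. Levels are CPM of summed counts, with exact Poisson or binomial intervals at 95%. Pairs needed 30 barcodes in each library and 50 UMIs, taken over both libraries together, and the fold was 1.5. Free RNA was scaled by genes of other cell types. With 1 library per condition no test was run. The members and lists were chosen with earlier results of these data known. The genes most like a member were the 3 with the highest correlation. The pathway genes given values were among those with the most UMIs of their list, except Il6, Tnf, Cd36, Tlr4 and Nfkbiz, which are named because few genes passed. Cebpd, Trac and Trbc2 were not analysed here. Depth ranged from 52084739 to 66631583 UMIs. Alternatives are listed in the closing section. Python 3.11.15, numpy 2.4.6, scipy 1.17.1, pandas 2.3.3 and matplotlib 3.10.9 were used, and the code was tested on simulated counts.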

Additional observations from a re-analysis of the deposited data

Results flagged for a closer look

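A few values had opposite directions in different classes of the same pair, and none of these differences was tested. In the blockade pair Thbs1 stood at 0.84 on the log2 scale in dendritic cells (86 and 174 UMIs) and at -1.20 in microglia (807 and 406 UMIs). In the overexpression pair Hp stood at 1.11 in Ackr1- ECs (62 and 58 UMIs), where free RNA would give 63.5% to 107% of its UMIs, and at -1.21 in microglia (378 and 23 UMIs). In the same pair Lcn2 stood at 1.01 in dendritic cells (41 and 88 UMIs), where free RNA would give 78% to 102% of its UMIs, and at -0.63 in Ackr1+ ECs (58864 and 93777 UMIs).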

How the results depend on the processing

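No paired analysis was possible because each condition had 1 library. Of 17 alternatives, 14 recompute the ratios (other UMI minimums, gates, thinning, free RNA subtraction, centring, and barcodes left out) and 3 change only which ratios are called. Over the 14, 1214 of 1411 values stayed inside the original 95% interval. The settings differed widely in this. Thinning to 2000 UMIs left 52 values inside the interval, 48 outside it and 2 reversed. Exclusion by 2 genes of another lineage put 29 outside, and the mean of each barcode's CPM put 26 outside. A limit of 5% mitochondrial UMIs put 0 outside. The sign changed in 57 values of 24 ratios that had not passed the fold, among them Saa3 in Ms4a7 macrophages of the blockade pair (down to -0.72) and Lcn2 in neutrophils of the overexpression pair (up to 0.38), and in 3 values of 2 ratios that had passed it. Those 3 were Lcn2 in neutrophils of the blockade pair at -0.0237 with barcodes thinned to 2000 UMIs, and Thbs1 in Ackr1+ ECs of the blockade pair at 0.47 with thinning and at 0.0312 when 5 genes of another lineage excluded a barcode; the cause was not tested. In the overexpression pair the values lower by the fold numbered 1 with thinning and 8 with free RNA subtracted. At 2-fold the blockade pair had 4 higher and 17 in all, and the overexpression pair 1 lower and 9 higher, 10 in all, by the stricter fold itself. With 50 UMIs asked of each library there were 15 lower and 10 higher (25) in the blockade pair and 2 and 10 (12) in the overexpression pair. The share of all genes that passed is not given for any of these changed settings, so these counts have no background beside them. Lcn2 in Ackr1+ ECs of the overexpression pair was short of 1.5-fold in 3 of the 14 (-0.64 to -0.45), and Mt2 in double-positive cells of the blockade pair in 4. The 5-gene exclusion, the minimum in each library and the microglial gate were chosen after seeing the data.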
